A study of Homo sapiens with 8 samples.

Results

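Serum response factor (SRF) and 9 genes of the actin cytoskeleton, ACTB, ACTG1, TAGLN, CNN1, MYL9, TPM1, VCL, FLNA and MYH9, were followed across 8 RNA sequencing samples of LM2 cells. The genes were taken by symbol from a list of SRF and its known targets, chosen with earlier results of these data known. All 10 were found among the 58688 gene rows of the count tables. LM2 is a derivative of the human triple negative breast cancer line MDA-MB-231 that was selected for spread to the lung. The study asked how the transcriptome of these cells responds to the tyrosine kinase inhibitor Ponatinib and to knockdown of the ABL kinases. The Ponatinib group was treated at 1 µmol/L for 6 h and compared with DMSO-treated cells, with 2 samples each. The shRNA set held 1 sample each of cells with a scrambled hairpin (shCtrl), ABL1 shRNA, ABL2 shRNA and both hairpins (ABL1/ABL2 shRNA). All 4 of these were stable lines made by lentiviral transduction in the presence of polybrene and, per the study's methods, puromycin selection. The sources used here do not say whether they were clones or pools.

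SRF binds a short DNA element, the CArG box, in the control regions of its target genes. Its cofactors of the MRTF family are held inactive by free actin monomers and are released when actin is assembled into filaments, so that the amount of free actin feeds back on the genes for actin and its partners. A second family of cofactors, the ternary complex factors ELK1, ELK3 and ELK4, is phosphorylated by ERK and directs SRF to immediate early genes such as FOS and EGR1.

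Counts on genes summed to between 7568934 (Ponatinib replicate 2) and 13010896 (ABL1 shRNA) per sample. Values below are normalized CPM, the counts of a gene relative to the library total adjusted by edgeR's TMM factors, and 3 counts correspond to between 0.231 and 0.396 CPM before that scaling. Nothing in the labels says that replicates came from separate cultures, so p-values measure the spread between these samples, which may be technical. Each knockdown is a single sample compared with the same shCtrl sample, and its intervals cover counting error only. The cells expressed the markers listed as present in LM2, with mean CPM in DMSO of 2943 for VIM, 734 for CD44, 250 for KRT8 and 220 for KRT18. The hormone receptor genes ESR1 and PGR, the epithelial CDH1, the leukocyte PTPRC and the fibroblast DCN were at or below 1.77 CPM in every sample, while EPCAM ranged from 5.01 to 11.9 CPM. COL1A1 was at 62.2 to 83.8 CPM with DMSO or Ponatinib, at 406 in shCtrl and at 99.0 with ABL1 shRNA, and PECAM1 was at 2.34 to 3.98 CPM in the first set and 20.5 to 39.6 in the shRNA set. Of the 6 smooth muscle genes listed, MYOCD, which encodes the muscle cofactor of SRF, had 0 counts in all 8 samples, and DES and LMOD1 were at or below 0.694 CPM.

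The header cell inside the shCtrl file reads "shabl1" and that inside the ABL1 shRNA file reads "NC". ABL1 was at 190 CPM in the sample labelled shCtrl, 72.8 in that labelled ABL1 shRNA, 203 in the ABL2 shRNA sample and 109 in the double knockdown. For ABL2 the values were 236, 213, 93.5 and 148 CPM in the same order. Each target was lowest in the library labelled with its own single hairpin, and the samples were used as labelled. The sets differed in the reads they held on near-identical copies of the actin genes. Reads on 32 pseudogenes named for ACTB or ACTG1 amounted to 2.47% to 2.97% of the reads on the parent genes in the first set and to 0.0398% to 0.0591% in the second, so levels were compared within each set only. ACTB and ACTG1 have near-identical coding sequences, and the split of reads between them and their pseudogenes is uncertain.

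A CArG box was searched for in RefSeq promoters (GRCh38.p14), each running from 250 bases before to 50 bases after a transcription start, as CC, then 6 bases that are each A or T, then GG, a pattern that reads alike on both strands. Of 35116 promoters, 454 (1.29%) held one. The table held promoters of 7 of the 10 genes, and ACTB, TAGLN and MYL9 were not among them. SRF, ACTG1 and FLNA held a match and CNN1, TPM1, VCL and MYH9 did not. The stretches with the matches are shown because they carry the element that SRF binds, with each box in capitals and each stretch written 5′ to 3′ on the strand of its gene. They lie at chr6:43171219-43171268 (plus strand), chr17:81512864-81512913 (minus strand) and chrX:154374699-154374748 (minus strand), with the first box base 30, 94 and 94 bases before the start.
SRF: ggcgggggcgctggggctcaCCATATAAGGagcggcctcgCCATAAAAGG
ACTG1: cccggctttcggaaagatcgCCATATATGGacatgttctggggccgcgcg
FLNA: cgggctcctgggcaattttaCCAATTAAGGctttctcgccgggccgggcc
SRF had 2 boxes in the bases just before its own start. The stretch of ACTG1 lies inside the annotated gene (chr17:81509413-81523847), at a start other than the outermost one. Reads were counted per gene, so the part of this inner start in the ACTG1 values was not tested. These are matches of letters in a window and not measured binding, and a promoter without a match only lacks these letters in this window.

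With Ponatinib, the messenger RNAs of SRF, both actins, vinculin, filamin A and nonmuscle myosin heavy chain fell by 12.8% to 29.4%. Of the 9 genes with enough reads to be tested, these 6 passed the quasi-likelihood test of edgeR at a Benjamini-Hochberg adjusted p under 0.05, all 9 log2 changes were negative, and CNN1 was too low to be tested. Among all 16031 genes tested, 30.7% passed in either direction, 15.7% as lower and 15% as higher. Both Ponatinib samples lay below both DMSO samples for 8 of the 9 and for 32.8% of all genes. The median log2 change of the 9 was -0.33, against -0.005 over all genes. None met the study's criterion for a differentially expressed gene, a fold change over 2 with an unadjusted P under 0.05, which 5.48% of all genes met (2.29% as lower). CPM is relative to the library total, so it measures neither cell number nor total RNA per cell. A fall in all cells and a larger fall in some of them cannot be told apart in bulk samples.

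**Figure D1:**
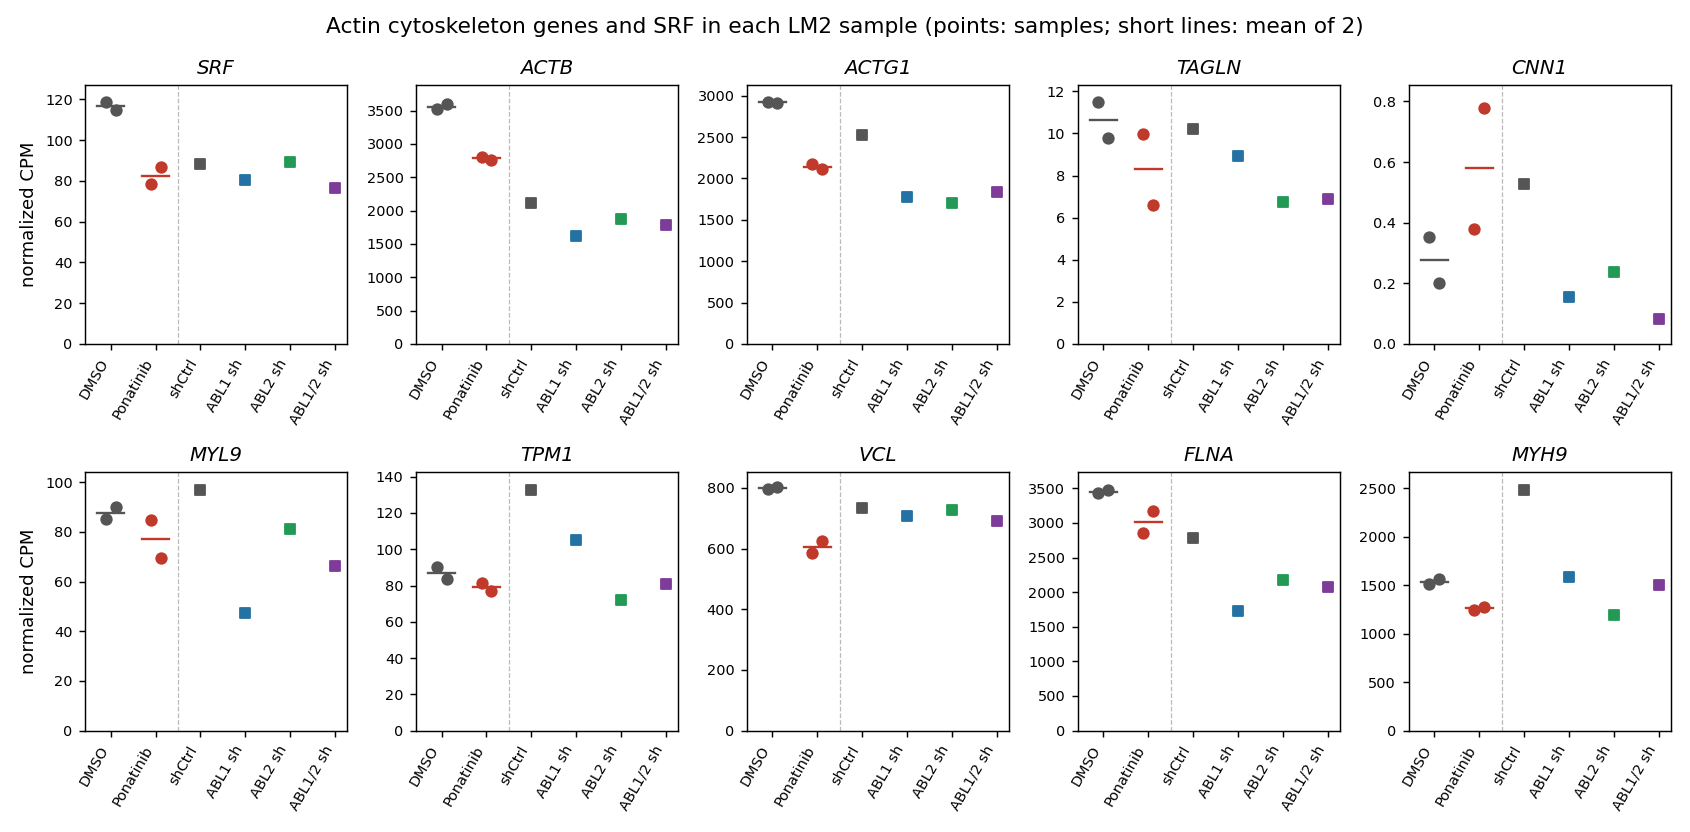
Normalized CPM of SRF and the 9 cytoskeletal genes in each of the 8 samples, 1 panel per gene with its own linear axis from 0, points for samples and short lines for the mean of 2 replicates. The dashed line separates the DMSO and Ponatinib set from the shRNA set, between which levels are not compared. Both Ponatinib points lie below both DMSO points for SRF, ACTB, ACTG1, MYL9, TPM1, VCL, FLNA and MYH9, and CNN1 stays at or below 0.779 CPM throughout.

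SRF itself (ENSG00000112658.7, chromosome 6 from 43171269 to 43181506 on GRCh38) was at 119 and 115 CPM in the DMSO samples and at 78.3 and 86.7 in the Ponatinib samples. Both DMSO samples were above both Ponatinib samples. Its mean fell by 29.4%, from 117 ± 2.95 to 82.5 ± 5.93 CPM (mean and SD of 2 samples each). On the log2 scale its fold change (log2 change) was -0.51 (standard error, SE, 0.071, adjusted p = 6.87e-05 in edgeR). This was the largest of the 9 changes.

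The cytoplasmic actins are the building blocks of the filaments. ACTB (ENSG00000075624.10, chromosome 7 from 5526409 to 5563902), beta-actin, was at 3521 and 3600.4 CPM with DMSO and at 2806 and 2761 with Ponatinib. ACTG1 (ENSG00000184009.6, chromosome 17 from 81509413 to 81523847), gamma-actin, was at 2922 and 2918 CPM with DMSO and at 2171 and 2114 with Ponatinib. For both genes the replicates lay close together and the groups stood apart. ACTB fell by 21.8%, with a log2 change of -0.36 (SE 0.053, adjusted p = 0.000129 in edgeR). ACTG1 fell by 26.6%, with a log2 change of -0.45 (SE 0.054, adjusted p = 1.55e-05 in edgeR). The 95% intervals of the changes, -0.47 to -0.24 for ACTB and -0.56 to -0.33 for ACTG1, overlapped. The ratio of ACTB to ACTG1 reads was 1.21 and 1.23 with DMSO and 1.29 and 1.31 with Ponatinib. Per kilobase of exon, these were the 2 highest of the 10 genes, with 808 and 721 CPM per kb in DMSO.

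Myosin pulls on the filaments, and tropomyosin, calponin and transgelin lie along them. MYH9 (ENSG00000100345.17, chromosome 22 from 36281280 to 36388010), the heavy chain of nonmuscle myosin IIA, was at 1511 and 1561 CPM with DMSO and at 1239 and 1280.3 with Ponatinib. The groups did not overlap. MYH9 fell by 18.0%, with a log2 change of -0.29 (SE 0.055, adjusted p = 0.00114 in edgeR). MYL9 (ENSG00000101335.6, chromosome 20 from 36541497 to 36551447), a regulatory light chain of myosin II, was at 85.4 and 89.9 CPM with DMSO and at 84.7 and 69.3 with Ponatinib. Its Ponatinib replicates differed from each other by more than the nearer one differed from DMSO, and the log2 change of -0.18 (SE 0.086) did not pass the test (adjusted p = 0.138 in edgeR). TPM1 (ENSG00000140416.16, chromosome 15 from 63042620 to 63071915), tropomyosin 1, was at 90.3 and 83.8 CPM with DMSO and at 81.3 and 76.8 with Ponatinib. The samples ran close together without overlapping, and the log2 change of -0.14 (SE 0.071) did not pass (adjusted p = 0.162 in edgeR). TAGLN (ENSG00000149591.13, chromosome 11 from 117199370 to 117207464), transgelin, was low, at 11.5 and 9.80 CPM with DMSO and at 9.96 and 6.62 with Ponatinib. The groups overlapped, and its log2 change of -0.33 had an interval from -0.73 to 0.07 (adjusted p = 0.205 in edgeR). CNN1 (ENSG00000130176.4, chromosome 19 from 11538767 to 11550323), smooth muscle calponin, had 4 and 2 counts with DMSO and 4 and 6 with Ponatinib, at or near the limit of 3 counts, so that no fold change is given. The sizes of the MYL9 and TAGLN changes depended on 1 library. Without Ponatinib replicate 1, MYL9 had a log2 change of -0.33 and TAGLN one of -0.68. Without DMSO replicate 2, MYH9 had a log2 change of -0.26 and its call was lost. Such fits leave 1 sample in a group and take the spread from the other pair alone, so a pass in them is no firmer call.

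Filamin A crosslinks filaments, and vinculin ties them to integrin adhesions. VCL (ENSG00000035403.13, chromosome 10 from 73995193 to 74121363), vinculin, was at 796 and 802 CPM with DMSO and at 586 and 625 with Ponatinib. It fell by 24.2%, with a log2 change of -0.40 (SE 0.058, adjusted p = 0.000102 in edgeR). The DMSO samples were nearly equal and the groups did not overlap. FLNA (ENSG00000196924.11, chromosome X from 154348524 to 154374634), filamin A, was at 3433 and 3476 CPM with DMSO and at 2856 and 3166 with Ponatinib. The Ponatinib samples differed from each other by 0.15 in log2 CPM, and both lay below DMSO. FLNA had the smallest change that passed, at -12.8% and a log2 change of -0.20 (SE 0.059, adjusted p = 0.0198 in edgeR). That call was lost without DMSO replicate 1 (log2 change -0.21), without DMSO replicate 2 (-0.19) and when the samples were scaled by total counts alone (-0.15), and its edgeR and DESeq2 adjusted p ranged from 5.96e-11 to 0.172 over the alternatives.

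Per kilobase of exon, the order of the levels in DMSO was ACTB (808 CPM per kb), ACTG1 (721), FLNA (318), MYH9 (90.2), VCL (79.9), MYL9 (31.2), SRF (27.6), TPM1 (5.92), TAGLN (1.62) and CNN1 (0.098). Neighbours in this order did not overlap between the DMSO replicates, the closest being MYL9, at 30.4 and 32.0, and SRF, at 28.1 and 27.1. The exon length joins all annotated isoforms of a gene, which lowers the value of genes with many, such as TPM1. The 10 genes together took 1.23% and 1.25% of all counts with DMSO and 1.00% and 1.04% with Ponatinib.

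The genes around SRF were described from lists of its cofactors and other known targets, and beside them from the ARP2/3 complex. These lists were chosen with earlier results of these data known. Shares called in them, here and below, are therefore a description and no independent evidence. Among the cofactors, MRTFA was at 26.8 and 29.3 CPM with DMSO and at 26.0 and 26.7 with Ponatinib, a difference that missed the threshold (log2 change -0.09, adjusted p = 0.546 in edgeR). MRTFB rose from 42.2 and 40.9 CPM to 54.2 and 61.1, with a log2 change of 0.47 (SE 0.085, adjusted p = 0.000697 in edgeR), opposite in sign to SRF. ELK3 fell most, from 213 and 199 CPM to 93.9 and 94.2, with a log2 change of -1.13 (SE 0.066, adjusted p = 6.99e-09 in edgeR). ELK1 fell from 98.8 and 103 CPM to 78.0 and 89.4, a log2 change of -0.27 (adjusted p = 0.0122 in edgeR). ELK4 had a log2 change of -0.04 (0.006 with total-count scaling, adjusted p = 0.733 in edgeR) and its groups overlapped. For MRTFB and ELK3 the DMSO and Ponatinib samples did not overlap, whereas the call for ELK1 was lost with DESeq2 (log2 change -0.27), without DMSO replicate 1 (-0.30), without DMSO replicate 2 (-0.24) and without Ponatinib replicate 1 (-0.16), with adjusted p from 2.3e-06 to 0.143 over its alternatives. Of 5 cofactors tested, 2 were called lower and 1 higher, beside 15.7% and 15% of all genes.

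Of 30 other contractile and adhesion targets of MRTF and SRF, 15 fell, 3 rose and 12 did not pass, with a median log2 change of -0.19, beside 15.7% of all genes called lower and 15% higher. With total-count scaling 12 were called lower and 5 higher, and with DESeq2 12 and 1. Leaving out DMSO replicate 1 gave 8 lower and 1 higher, leaving out DMSO replicate 2 gave 9 and 0, and leaving out Ponatinib replicate 1 gave 17 and 5. PDLIM5, a scaffold of actinin at the filaments, fell most, from 192 and 196 CPM to 84.8 and 96.2, with a log2 change of -1.11 (adjusted p = 2.09e-08 in edgeR). CNN2, the calponin of nonmuscle cells, fell from 178 and 180.2 CPM to 105 and 109 (log2 change -0.74, adjusted p = 4.78e-07 in edgeR). ZYX, or zyxin, a protein of adhesions and stress fibres, fell from 171 and 175 CPM to 103 and 104 (log2 change -0.74, adjusted p = 4.78e-07 in edgeR). FHL2, a LIM domain protein, fell from 68.9 and 74.3 CPM to 46.9 and 41.9 (log2 change -0.68, adjusted p = 1.77e-05 in edgeR). In all 4 the Ponatinib samples were below the DMSO samples, and of the 30 only PDLIM5 passed the study's criterion of a fold change over 2. The 3 that rose, named after their values were seen, were TES (log2 change 0.29), TPM2 (0.25) and FHL1 (0.25). The smooth muscle actins ACTA2 and ACTG2, which are also SRF targets, were at 0.519 to 1.67 and 0.569 to 1.62 CPM across all 8 samples, and neither passed in edgeR (log2 changes -0.40 and -0.67, adjusted p = 0.557 and 0.33).

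CArG boxes were found in the promoters of 10 of 29 of these genes (34.5%, a gene with several promoters counted once), beside 1.29% of all promoters. The 2 shares have unlike units, genes and single promoters. The list was made of known SRF targets, so matches in it are no independent evidence. The stretches of CNN2 (chr19:1026499-1026548, plus strand), SMTN (chr22:31084932-31084981, plus strand), MYLK (chr3:123620613-123620662, minus strand) and EGR1 (chr5:138465354-138465425, plus strand) are shown as examples from genes whose values are described here, with boxes in capitals. Those of SMTN and MYLK lie inside the annotated genes (chr22:31064105-31104757 and chr3:123610049-123884332), at starts other than the outermost ones. Reads were counted per gene, so the part of these inner starts in the values was not tested.
CNN2: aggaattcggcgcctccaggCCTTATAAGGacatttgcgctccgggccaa
SMTN: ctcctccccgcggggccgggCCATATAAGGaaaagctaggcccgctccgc
MYLK: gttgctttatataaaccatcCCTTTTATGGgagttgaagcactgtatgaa
EGR1: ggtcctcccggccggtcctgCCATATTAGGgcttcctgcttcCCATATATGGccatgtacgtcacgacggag
SMTN carries the same box, CCATATAAGG, as the first of SRF, and EGR1 carries 2. Matches were also found for TES and FHL1, which rose with Ponatinib. No match was found in the promoters of the 5 cofactors or the 7 ARP2/3 genes in the table. The same held for the 2 genes in the table that are targets of both SRF and YAP, described below.

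The 3 matricellular and nuclear targets that SRF shares with YAP all fell, with log2 changes further from 0 than those of SRF and the cytoskeletal genes. Over all genes tested, 15.7% were called lower. CCN2, a secreted matrix protein, went from 461 and 430 CPM to 63.3 and 53.2 (log2 change -2.92, adjusted p = 4.81e-12 in edgeR). ANKRD1, a nuclear ankyrin repeat protein, went from 492 and 457 CPM to 128 and 112 (log2 change -1.98, adjusted p = 5.78e-11 in edgeR). CCN1, a relative of CCN2, went from 1272 and 1256 CPM to 431 and 407 (log2 change -1.59, adjusted p = 5.78e-11 in edgeR).

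Of the 9 immediate early targets of SRF with ternary complex factors, 7 were tested, of which 5 fell, NR4A1 rose and FOSB did not pass. Over all genes tested, 15.7% were called lower and 15% higher. The transcription factor genes FOS and EGR1 led. EGR1 went from 14.7 and 16.0 CPM to 2.66 and 3.63 (log2 change -2.31, adjusted p = 3.44e-07 in edgeR). FOS was near the detection limit after treatment, at 4.50 and 4.55 CPM against 0.379 and 1.04 (51, 45, 4 and 8 counts, log2 change -2.75, adjusted p = 4.77e-05 in edgeR). MCL1, an inhibitor of apoptosis, went from 628 and 616 CPM to 255 and 270 (log2 change -1.25, adjusted p = 1.11e-09 in edgeR). NR4A1, an orphan nuclear receptor, was higher, at 2.12 and 1.11 CPM against 4.55 and 4.93 (log2 change 1.51, adjusted p = 0.00129 in edgeR). The other 2 that fell, named after their values were seen, were IER2 (log2 change -1.07) and JUNB (-0.55).

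Of the 8 subunits of the ARP2/3 complex, which branches filaments, ARPC4 (log2 change -0.52, adjusted p = 4.73e-05 in edgeR) and ARPC5 (-0.32, adjusted p = 0.000673 in edgeR) fell, and the other 6 did not pass. Over all genes tested, 15.7% were called lower and 30.7% passed in either direction.

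Of the 6 smooth muscle genes, 3 were tested. SMTN, smoothelin, fell from 186 and 176 CPM to 76.2 and 71.8 (log2 change -1.29, adjusted p = 2.6e-09 in edgeR), and SYNPO2, which binds filaments, rose from 0.441 and 0.202 CPM to 2.75 and 4.15 (5 and 2 against 29 and 32 counts, log2 change 3.30, adjusted p = 6.14e-05 in edgeR). The muscle myosin MYH11 had a log2 change of 0.08 (adjusted p = 0.812 in edgeR). The summed level of the 6 was 191 and 181 CPM with DMSO and 83.6 and 81.5 with Ponatinib, nearly all of it SMTN, and 2 of the 6 had 0 counts in each of these samples. Among the markers of the line itself, CD44 (log2 change -0.41, adjusted p = 8.08e-05 in edgeR) and KRT18 (-0.55, adjusted p = 9.86e-06 in edgeR) also fell, while VIM (0.06, adjusted p = 0.415) and KRT8 (0.02, adjusted p = 0.8) did not pass in edgeR. COL1A1 rose by a log2 change of 0.34 (adjusted p = 0.00334 in edgeR). The part of these markers in the changes of the cytoskeletal genes was not tested. ABL2, a target of the drug, fell (log2 change -1.02, adjusted p = 8.56e-08 in edgeR), and ABL1 had a log2 change of 0.19 that passed in edgeR (adjusted p = 0.0287) but not in DESeq2 (adjusted p = 0.112, range over alternatives 0.000217 to 0.259).

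**Figure D2:**
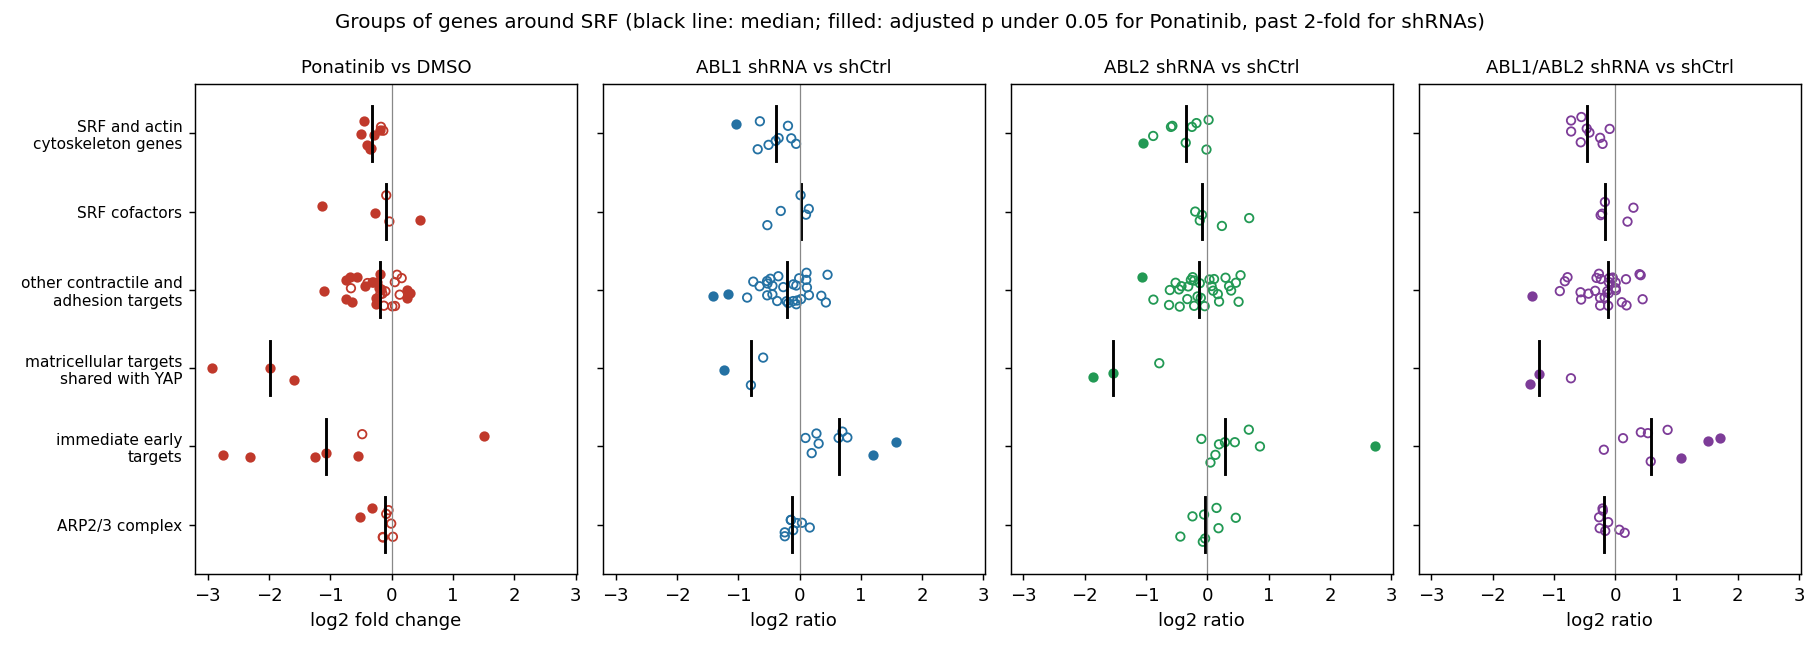
Log2 fold change of every tested gene in 6 lists around SRF (rows) for Ponatinib against DMSO (left panel) and log2 ratio for each shRNA sample against shCtrl (other panels). Each point is a gene, black bars are list medians, and filled points passed adjusted p under 0.05 for Ponatinib or a 2-fold difference for the shRNAs. With Ponatinib the matricellular genes lie farthest left with a median of -1.98, and the immediate early genes have a median of -1.07 with Ponatinib and of 0.64, 0.29 and 0.58 in the ABL1, ABL2 and ABL1/ABL2 shRNA panels.

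In the shRNA set the same genes were compared with shCtrl to see how they stood after partial knockdown of ABL1, ABL2 or both. The 3 comparisons share 1 control sample, so a high or low value of shCtrl enters all of them, and they are given side by side. With ABL1 shRNA, the myosin light chain gene MYL9 was past 2-fold lower, and with ABL2 shRNA the heavy chain gene MYH9 was. No member was past 2-fold with both hairpins. Across the 16172 genes past the low-count filter, 9.11% were past 2-fold with ABL1 shRNA (4.25% lower), 8.05% with ABL2 shRNA (3.33% lower) and 8.14% with ABL1/ABL2 shRNA (3.44% lower), so 1, 1 and 0 of 9 is near that background. The median log2 ratio of the 9 genes was -0.39, -0.35 and -0.46 in the ABL1, ABL2 and ABL1/ABL2 shRNA samples, while that of all genes was 0.003, -0.006 and 0.000. With ABL1 shRNA and with both hairpins all 9 genes were below shCtrl, and with ABL2 shRNA 8 were, or 7 when samples were scaled by total counts alone, under which VCL had a log2 ratio of 0.03. Past 1.5-fold lower were 3, 3 and 2 of the 9, FLNA, MYH9 and MYL9 with ABL1 shRNA, TAGLN, TPM1 and MYH9 with ABL2 shRNA and TPM1 and MYH9 with both, while 24.2%, 20.2% and 21.8% of all genes were past 1.5-fold in either direction and 11.6%, 8.47% and 9.71% as lower. Each knockdown and shCtrl is 1 sample, so these ratios have no replicate check of their own. In an edgeR fit of all 8 samples, which assumes that the shRNA samples vary like the DMSO and Ponatinib pairs, 6, 4 and 6 of the 9 had an adjusted p under 0.05, all of them lower. Of the 18275 genes in that fit, 22%, 15.6% and 17.8% passed in either direction and 11.4%, 7.68% and 9.42% as lower.

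**Figure D3:**
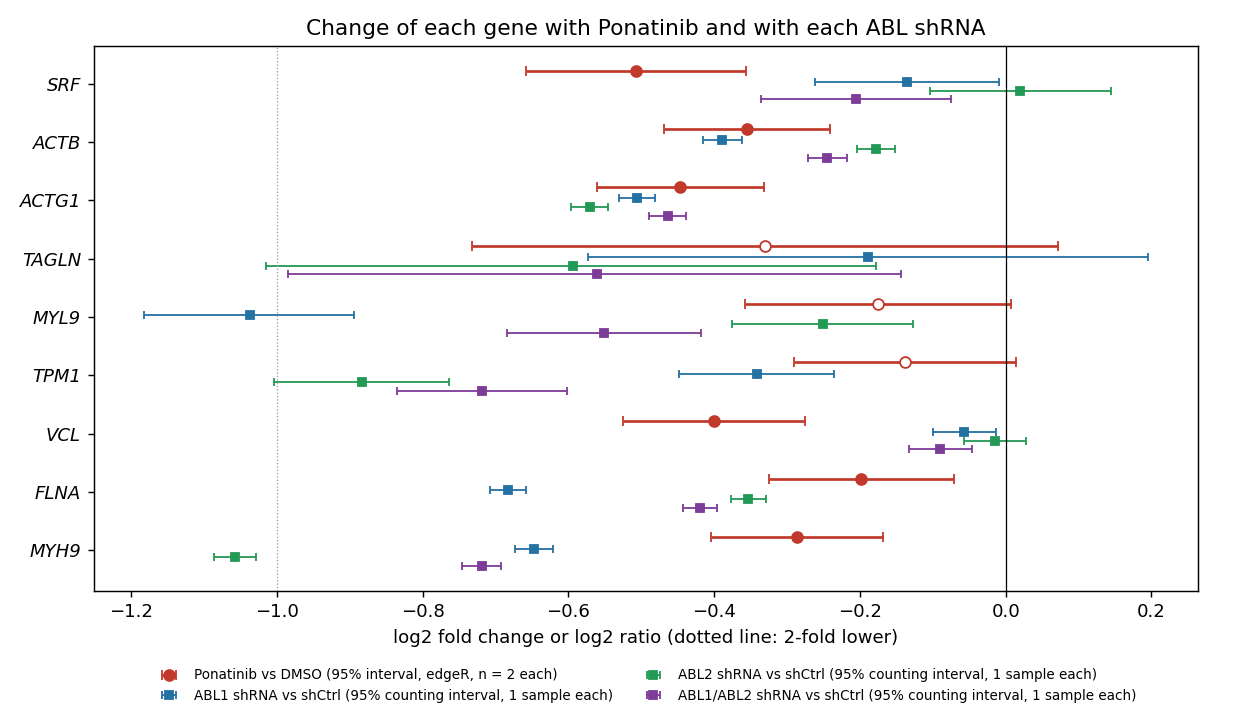
Log2 fold change with Ponatinib (circles, 95% interval of the edgeR fit, 2 samples each) and log2 ratio to shCtrl for each shRNA sample (squares, 95% counting interval, 1 sample each) for the 9 genes tested. Filled circles passed an adjusted p under 0.05, open circles did not, and the dotted line marks 2-fold lower. SRF and VCL have Ponatinib changes of -0.51 and -0.40 but shRNA ratios between -0.20 and 0.02, while MYH9 and MYL9 each have an shRNA ratio past the dotted line.

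SRF was at 88.2 CPM in shCtrl and at 80.3, 89.5 and 76.5 with ABL1, ABL2 and both hairpins. The log2 ratios were -0.14 (95% counting interval -0.26 to -0.01), 0.02 (-0.10 to 0.14) and -0.20 (-0.34 to -0.07), each smaller in size than the SRF change with Ponatinib, which was measured in another set and not tested against them. VCL was as even, at 735 CPM in shCtrl and at 707, 728 and 691 with ABL1, ABL2 and both hairpins, with log2 ratios of -0.06, -0.01 and -0.09. For scale, the replicate pairs of the other set differed by at most 0.15 in log2 CPM for SRF and 0.09 for VCL. Those pairs may be technical and do not measure the spread between stable lines.

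The actins were lower than shCtrl in each knockdown. ACTB was at 2113 CPM in shCtrl and at 1614, 1868 and 1783 with ABL1, ABL2 and both hairpins, with log2 ratios of -0.39 (-0.42 to -0.36), -0.18 (-0.20 to -0.15) and -0.24 (-0.27 to -0.22). ACTG1 was at 2527 CPM in shCtrl and at 1779.8, 1702 and 1833, with log2 ratios of -0.51 (-0.53 to -0.48), -0.57 (-0.60 to -0.54) and -0.46 (-0.49 to -0.44). ACTG1 was the further from shCtrl of the 2 in all 3 samples, and the ratio of ACTB to ACTG1 reads went from 0.836 in shCtrl to 0.907, 1.10 and 0.973. Replicates of the other set differed by at most 0.03 and 0.04 in log2 CPM for these genes. Here too, those pairs give no measure of the spread between stable lines, which had no replicates.

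The members past 2-fold were the 2 myosin genes, each in 1 sample. MYH9 was at 2479.8 CPM in shCtrl and at 1584, 1192 and 1506 with ABL1, ABL2 and both hairpins. The level with ABL2 shRNA differed from shCtrl by -52.0% (log2 ratio -1.06, counting interval -1.09 to -1.03), that with ABL1 shRNA had a log2 ratio of -0.65 and that with both -0.72. MYL9 was at 96.8 CPM in shCtrl and at 47.2, 81.4 and 66.1. Here the sample with ABL1 shRNA was lowest, with a difference of -51.3% from shCtrl (log2 ratio -1.04, counting interval -1.18 to -0.89), against -0.25 with ABL2 shRNA and -0.55 with both. The heavy and light chain genes were lowest in different samples, and for both the double knockdown lay between the single ones. Each ABL gene was less reduced in that double sample. ABL1 was at 0.576 of shCtrl there, against 0.384 with ABL1 shRNA, and ABL2 at 0.625, against 0.396 with ABL2 shRNA.

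TPM1 was at 133 CPM in shCtrl and at 105, 72.1 and 80.8 with ABL1, ABL2 and both hairpins, with log2 ratios of -0.34, -0.88 and -0.72. FLNA was at 2782 CPM in shCtrl and at 1733, 2179 and 2080.5, with log2 ratios of -0.68, -0.35 and -0.42. TPM1 was lowest with ABL2 shRNA, as MYH9 was, and FLNA with ABL1 shRNA, as MYL9 was. TAGLN was at 10.2 CPM in shCtrl and at 8.94, 6.75 and 6.91, from 116, 116, 85 and 84 counts, and its log2 ratio with ABL1 shRNA of -0.19 had a counting interval that reached 0.20. CNN1 had 6 counts in shCtrl and 2, 3 and 1 in the knockdowns, ratios of 0.292 (0.0289 to 1.64), 0.452 (0.0732 to 2.12) and 0.156 with intervals that include 1, so no difference was detectable at this depth. Together the 10 genes took 1.08% of all counts in shCtrl and 0.764%, 0.800% and 0.823% with ABL1, ABL2 and both hairpins.

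Of 30 contractile and adhesion targets, 2, 1 and 1 were past 2-fold lower with ABL1, ABL2 and both hairpins and none was past 2-fold higher, a share near that of all genes. MYLK, the kinase that phosphorylates myosin light chains, was past 2-fold lower in each, at 133 CPM in shCtrl and 50.2, 63.5 and 52.4 with ABL1, ABL2 and both hairpins (log2 ratios -1.41, -1.07 and -1.35). MYLK had no change that passed with Ponatinib (log2 change 0.16, adjusted p = 0.116 in edgeR). FLNC, the muscle filamin, was at 86.4 CPM in shCtrl and at 38.3, 56.0 and 46.2, with log2 ratios of -1.17 (counting interval -1.33 to -1.02), -0.62 (-0.77 to -0.48) and -0.90 (-1.05 to -0.75), below shCtrl in each. The cofactors and the ARP2/3 subunits had no gene past 2-fold, and their outermost log2 ratios were 0.68 for ELK3 with ABL2 shRNA and -0.53 for MRTFB with ABL1 shRNA among the cofactors.

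CCN1 was at 947 CPM in shCtrl and at 402, 260 and 362 with ABL1, ABL2 and both hairpins, log2 ratios of -1.24, -1.87 and -1.39. ANKRD1 was at 228 CPM in shCtrl and at 132, 78.8 and 96.1, log2 ratios of -0.79, -1.54 and -1.25. CCN2 was at 129 CPM in shCtrl and at 85.4, 74.8 and 78.2, log2 ratios of -0.59, -0.78 and -0.72, past 2-fold in none. Of these 3 matricellular and nuclear targets, 1, 2 and 2 were past 2-fold lower, beside 4.25%, 3.33% and 3.44% of all genes. ANKRD1 was the median of the 3 in each sample. Of the 9 immediate early genes, 2, 1 and 3 were past 2-fold higher with ABL1, ABL2 and both hairpins, as were 4.86%, 4.72% and 4.71% of all genes. Above shCtrl were 9, 8 and 8 of the 9, with median log2 ratios of 0.64, 0.29 and 0.58, and JUNB, named after its values were seen, was at -0.10 with ABL2 shRNA and -0.18 with both. EGR3, a zinc finger factor with only 16 counts in shCtrl, had 42, 119 and 49 counts in the knockdowns, log2 ratios of 1.20, 2.74 and 1.51. NR4A1 was at 2.90 CPM in shCtrl and at 8.63, 3.18 and 9.54, past 2-fold with ABL1 shRNA (1.57) and both hairpins (1.71), and FOS was past 2-fold with both (1.08).

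Markers that do not belong to the cytoskeleton also differed between the shRNA samples. COL1A1 was at 406 CPM in shCtrl and at 99.0, 227 and 138 with ABL1, ABL2 and both hairpins, and KRT8 was at 475 CPM in shCtrl and at 806, 294 and 630.5. The summed level of the 8 markers listed for other cells or for hormone receptor status was 438 CPM in shCtrl, mostly COL1A1, and 140, 273 and 178 in the knockdowns, with CDH1 at 0.351, 1.77, 0.159 and 1.64 CPM and PGR at 0 in each. Their part in the values of the 10 genes was not tested.

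As a description over the 8 samples, each gene's log2 CPM was centred within its set and set beside the mean of the 8 genes among the 10 that reached 100 counts throughout. That mean was 0.16 in both DMSO samples, -0.16 in both Ponatinib samples, 0.33 in shCtrl, and -0.15, -0.08 and -0.10 with ABL1, ABL2 and both hairpins. Pearson's r of the single members with this mean was highest for ACTG1 (0.979) and ACTB (0.927) and lowest for TPM1 (0.681). Each member is part of the mean, which raises its r. In all, 8995 genes reached 100 counts throughout, the list genes included. Outside the lists, those most like the mean were MAP7D3 (r = 0.992), EIF3B (0.990), CDV3 (0.987), CRIM1 (0.986) and C1orf198 (0.985). The 8 points share a control within each set and carry no p-value.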

How the data were processed

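RNA from 8 samples of LM2 cells was sequenced, with 2 DMSO, 2 Ponatinib and 4 single shRNA samples. The authors deposited raw read counts per gene, 1 table per sample, without normalization. Per the study's methods and processing notes, reads were mapped to hg38 with TopHat and counted with HTSeq 0.6.0. Annotation release and strand setting are not given in the sources used here, so reads of overlapping antisense genes could not be told apart. The shRNA tables end in rows with totals of the counter (9.48% to 9.90% of reads on no feature, 6.12% to 6.32% ambiguous), which were left out, and the other tables have none. Totals on genes ranged from 7568934 to 13010896.

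Of 58688 gene IDs, 54836 matched GENCODE v44 on GRCh38, the source of symbols, positions and exon lengths. The quasi-likelihood test of edgeR 4.0.16 was run in R 4.3.3 (TMM, filterByExpr, prior count 0.125) in the 4 DMSO and Ponatinib samples, and a call is an adjusted p under 0.05 over all 16031 genes. Standard errors were taken from the fold change and its F statistic. Percent changes compare group means. Each knockdown was given as the ratio of TMM CPM to shCtrl with an exact 95% counting interval and, in the main analysis, no test, and 2-fold was the threshold. The step was tested on simulated data with 15777 genes. Of 100 genes changed 1.5-fold 60 were recovered, of 100 changed 2-fold 88, and 8 unchanged genes were called. Changes as small as those of the members with Ponatinib (log2 -0.14 to -0.51, each under 1.5-fold) were not simulated.

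The members and lists were chosen with earlier results of these data known. One further list of regulators is not reported here. Named genes are the 10 members, all cofactors, ABL1, ABL2, the identity markers, the up to 4 largest called changes with Ponatinib and up to 2 past 2-fold per knockdown in each other list, and the 5 genes most like the members' mean. A few others are named as chosen after their values were seen, or, as for ACTA2, ACTG2, FOSB, MYH11 and DES, to complete a list. Replicates were not the same library (chi-square per degree of freedom 1.44 for DMSO and 3.12 for Ponatinib). Promoter stretches are RefSeq's, build GRCh38.p14. Alternatives were DESeq2 1.42.0 and its size factors, total-count scaling, other filters, a replicate block, a fit of all 8 samples, a 1.5-fold threshold, each replicate left out, and, chosen after seeing the data, the shCtrl and ABL1 shRNA tables exchanged as their header cells read.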

Additional observations from a re-analysis of the deposited data

How the results depend on the processing

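The count of 6 called members of 9 with Ponatinib was 6 with DESeq2's size factors, no filter, 10 counts in every sample, the DESeq2 test, the fit of all 8 samples and the replicate block, and 5 with total-count scaling. Leaving out one replicate gave 4 to 8, and the study's criterion of a fold change over 2 gave 0. No call changed sign under these settings. Differences that passed no threshold did so for ELK4, KRT8 and PECAM1 with Ponatinib and, with total-count scaling, for VCL with ABL2 shRNA (0.03 against -0.01). The deviations of same-numbered replicates had a Pearson r of 0.0185 over 12342 genes (genes are no replicates), so they share only a number, and the replicate block, which called 4984 genes in all against 4917, changed no call of a named gene. DESeq2 called 2576 genes in all, and leaving out a replicate gave 2800 to 5744. The cause was not tested.

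Members past the fold numbered 1, 1 and 0 for ABL1, ABL2 and both hairpins at 2-fold, and 3, 3 and 2 at 1.5-fold, where 24.2%, 20.2% and 21.8% of all genes passed. In the fit of all 8 samples, where only DMSO and Ponatinib have replicates, 6, 4 and 6 had an edgeR adjusted p under 0.05, as did 22%, 15.6% and 17.8% of all genes in that fit. With the shCtrl and ABL1 shRNA tables exchanged, the counts were 1, 0 and 0, and MYL9 was then higher with ABL1 shRNA. Among the members, CNN1 and TAGLN had the fewest counts and the widest counting intervals of their knockdown ratios.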
